A study of Mus musculus with 10 samples.

Results

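The 9 genes described here are the urea cycle and the entry of ammonia into it: *Cps1*, *Otc*, *Ass1*, *Asl*, *Arg1*, *Nags*, *Slc25a15*, *Slc25a13* and *Glud1*. They were chosen by name, and all 9 were found among the 24052 gene symbols of the count tables. The transcripts of 10 whole livers were sequenced, 5 from Ndrg3 LKO mice and 5 from wild-type mice, all on a C57BL/6 background and with food ad libitum (the floxed line was crossed back to C57BL/6N). In Ndrg3 LKO mice both copies of *Ndrg3* carried loxP sites around exon 4, and Cre recombinase under the albumin promoter removes that exon in cells that use this promoter, which are hepatocytes above all, while the other cell types of the liver are not targeted. The controls were wild-type littermates. The methods of the study give an age of 8 to 10 weeks for these mice and a figure legend gives 10 to 12 weeks. The methods count 5 Ndrg3 LKO livers, but the figure legends on these livers count 4 and do not say which was left out. In whole liver, less RNA per hepatocyte and fewer hepatocytes cannot be told apart.

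The urea cycle turns ammonia, which is toxic to the brain, into urea for excretion, and the whole cycle runs in hepatocytes. It starts in mitochondria, where carbamoyl phosphate synthetase (*Cps1*) fixes ammonia and ornithine transcarbamylase (*Otc*) joins the product to ornithine to give citrulline. The later steps take place in the cytosol: argininosuccinate synthetase (*Ass1*) adds aspartate to citrulline, argininosuccinate lyase (*Asl*) splits the product into arginine and fumarate, and arginase (*Arg1*) releases urea and ornithine. N-acetylglutamate synthase (*Nags*) makes the activator that *Cps1* needs, the carrier *Slc25a15* exchanges ornithine and citrulline across the inner mitochondrial membrane, and the carrier *Slc25a13* (citrin) exports aspartate. Glutamate dehydrogenase (*Glud1*) releases ammonia from glutamate. The enzymes of the cycle itself, from *Cps1* to *Arg1*, are known to be more abundant in periportal than in pericentral hepatocytes. *Glul*, glutamine synthetase, marks the pericentral cells that take up the ammonia left over.

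The genotype was checked first. *Ndrg3* stood at 17.8, 17.8, 16.0, 19.1 and 21.9 CPM (reads scaled to library size, here with TMM factors that correct for library composition) in wild-type replicates 1 to 5 and at 7.08, 8.06, 9.18, 7.79 and 8.26 CPM in Ndrg3 LKO replicates 1 to 5. No Ndrg3 LKO liver reached the lowest wild-type value, and replicate 5 lay within the range of the other Ndrg3 LKO livers. Ndrg3 LKO replicate 5 stood apart in other genes. On the first principal component, which held 68.7% of the variance, wild-type livers lay between -49.9 and -43.1, Ndrg3 LKO replicates 1 to 4 between 51.1 and 56.6, and replicate 5 at 14.1. Results on the 9 genes are therefore given with and without it. The libraries held 20872262 to 24747870 counts in wild-type and 23474693 to 30450057 in Ndrg3 LKO livers, so 3 counts, taken as the smallest detectable signal, corresponded to 0.0985 to 0.144 CPM. The 20 most abundant genes took 26.2% to 28.0% of the counts in wild-type livers, 16.3% to 17.3% in Ndrg3 LKO replicates 1 to 4 and 26.6% in replicate 5.

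Of the 9 genes, 8 passed the filter of at least 1 CPM in at least 5 livers, and 5 differed between genotypes at an adjusted p under 0.05 by edgeR's quasi-likelihood test, adjusted over all 11208 genes tested. *Otc*, *Asl* and *Slc25a13* were lower in Ndrg3 LKO livers, and *Slc25a15* and *Glud1* were higher. In all, 48.6% of the genes tested passed the same threshold (25.6% higher, 23.0% lower), so 5 of 8 lay near this background. *Cps1*, *Arg1* and *Nags* did not pass, and without Ndrg3 LKO replicate 5 their log2 fold changes were 0.12, -0.17 and -0.024 (edgeR adjusted p = 0.654, 0.470 and 0.905). Without Ndrg3 LKO replicate 5 the same 5 genes passed, beside 55.6% of all genes (28.4% higher, 27.2% lower). The groups did not overlap in 3 of the 8 genes, *Otc*, *Slc25a13* and *Slc25a15*, compared with 31.5% of all genes tested. The 8 genes spread widely in size and direction, with log2 fold changes from -2.43 for *Otc* to 1.09 for *Slc25a15* around a median of 0.013. The median of all genes tested was 0.031.

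**Figure D1:**
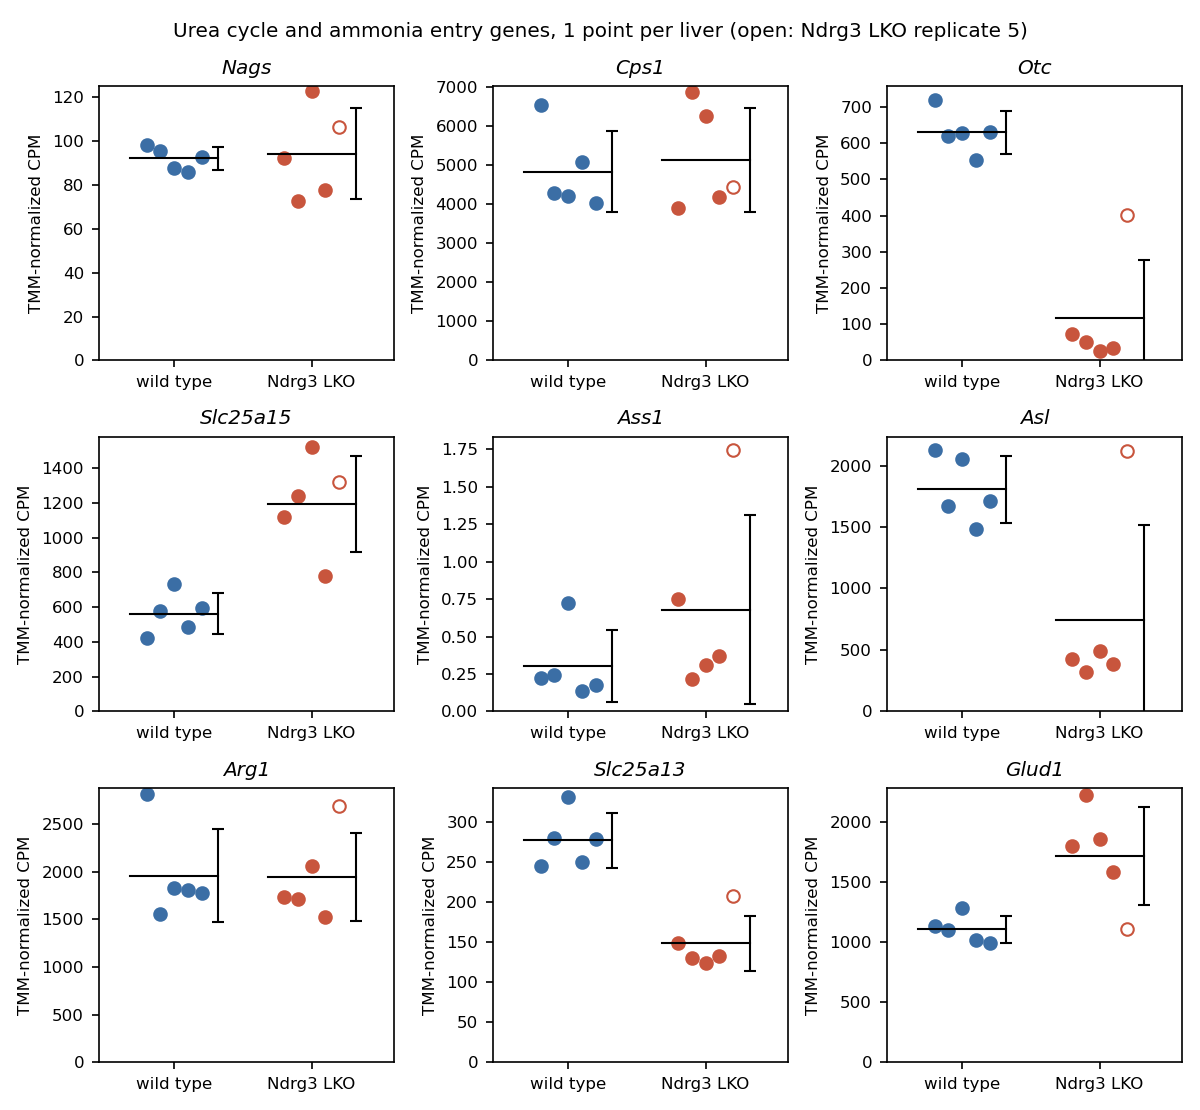
TMM-normalized CPM (y axis, starting at 0) of each of the 9 genes in 5 wild-type and 5 Ndrg3 LKO livers, 1 point per liver, with the group mean (line) and SD (bar, cut at 0 where it runs below). *Otc*, *Asl* and *Slc25a13* are lower and *Slc25a15* and *Glud1* higher in Ndrg3 LKO livers, and Ndrg3 LKO replicate 5 (open point) lies at 400.4 CPM for *Otc* and 2115 CPM for *Asl*, far above the other 4.

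The sequence before the start of transcription is shown for the genes whose level differed and for which RefSeq gave a start: *Otc* and *Slc25a13*, which were lower, and *Slc25a15* and *Glud1*, which were higher. RefSeq promoter entries were found for 6 of the 9 genes, and not for *Cps1*, *Asl* and *Arg1*. *Slc25a15* had 2 starts, of which the one at the annotated gene start is shown. Each sequence is the 250 bases before the start, read 5′ to 3′ on the gene's strand, taken from the RefSeq table of GRCm38.p6 and placed on NCBIM37 (mm9), the build of the count tables, by its only exact match there. The windows lie at chrX:9829181-9829430 (plus strand, *Otc*), chr6:6167174-6167423 (minus strand, *Slc25a13*), chr8:23509094-23509343 (minus strand, *Slc25a15*) and chr14:35123663-35123912 (plus strand, *Glud1*). Capitals mark matches, on either strand, to any of 6 motifs. They include a partial HNF4 site (AAAGTNCA), a C/EBP site (TTGCNNAA) and the cAMP response element (TGACGTCA). The others are the E-box (CACGTG), the GC box (GGGCGG) and the TATA box (TATAAA). A whole HNF4 site was not searched for. Capitals run together where copies of a motif touch or overlap.
Otc: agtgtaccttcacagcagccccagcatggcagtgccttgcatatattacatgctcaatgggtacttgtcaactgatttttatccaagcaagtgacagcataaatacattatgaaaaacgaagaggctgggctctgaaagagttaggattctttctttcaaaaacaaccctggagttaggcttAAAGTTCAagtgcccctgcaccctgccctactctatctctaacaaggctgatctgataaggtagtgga
Slc25a13: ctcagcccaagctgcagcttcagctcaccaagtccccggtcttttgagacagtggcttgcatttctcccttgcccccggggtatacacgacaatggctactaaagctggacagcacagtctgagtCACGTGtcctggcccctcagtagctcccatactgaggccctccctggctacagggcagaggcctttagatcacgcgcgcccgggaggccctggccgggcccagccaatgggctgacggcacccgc
Slc25a15: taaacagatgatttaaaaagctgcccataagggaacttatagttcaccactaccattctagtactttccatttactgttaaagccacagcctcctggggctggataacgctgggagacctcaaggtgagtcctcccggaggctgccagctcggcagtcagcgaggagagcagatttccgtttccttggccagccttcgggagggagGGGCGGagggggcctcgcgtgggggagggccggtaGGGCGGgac
Glud1: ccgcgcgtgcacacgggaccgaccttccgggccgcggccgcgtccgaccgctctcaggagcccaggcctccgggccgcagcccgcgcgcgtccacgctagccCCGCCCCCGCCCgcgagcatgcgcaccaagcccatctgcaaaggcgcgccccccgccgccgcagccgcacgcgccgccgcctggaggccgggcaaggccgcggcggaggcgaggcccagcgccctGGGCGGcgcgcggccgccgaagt

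The 4 windows differed in composition and in the motifs they held. The *Otc* window had 43.6% G and C and 1 match, AAAGTTCA, whose first base lay 68 bases before the start. That motif was present in 3.53% of the 32851 promoter windows of the same length. The *Slc25a13* window had 62.8% G and C and 1 E-box, a motif found in 6.02% of windows. The *Slc25a15* window had 57.6% G and C with 2 GC boxes, and the *Glud1* window had 82.0% G and C with 3, where 32.7% of all windows held at least 1 GC box and the median window had 52.4% G and C. None of these 4 windows held a C/EBP site, a cAMP response element or a TATA box in these letters, which were found in 9.56%, 1.55% and 12.4% of all windows. The second start of *Slc25a15*, not shown, had 80.4% G and C, 5 GC boxes and 1 E-box in its 250 bases, so the description of this gene holds for the start shown. A match in letters is not a bound site.

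The mitochondrial entry of the cycle was examined next. *Cps1* (chr1:67169600-67277833, plus strand, 38 exonic blocks) encodes the enzyme that commits ammonia to the cycle. It was counted at 6539, 4293, 4200.4, 5091 and 4032 CPM in wild-type replicates 1 to 5 and at 3901, 6869, 6251, 4194 and 4431 CPM in Ndrg3 LKO replicates 1 to 5. The groups overlapped over almost their whole ranges, with means of 4831 ± 1038 and 5129 ± 1337 CPM (SD, n = 5 each) and a log2 fold change of 0.086 (SE 0.225, edgeR adjusted p = 0.770). *Nags* (chr11:102006827-102010791, plus strand, 4 exonic blocks) makes the allosteric activator of CPS1 and was the least abundant of the genes tested per kilobase of exon in wild-type livers. It stood at 98.1, 95.6, 87.7, 85.8 and 92.9 CPM in wild-type and 92.1, 72.8, 123, 77.5 and 106 CPM in Ndrg3 LKO livers. Its Ndrg3 LKO values spread on both sides of the wild-type values, and the log2 fold change was 0.035 (SE 0.149, edgeR adjusted p = 0.863). *Nags* overlaps the annotated gene *Gm11586* on the opposite strand, and the strand setting of the counting is not given in the sources used here, so reads of the 2 genes may not be separated.

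*Otc* (chrX:9829431-9898150, plus strand, 11 exonic blocks) showed the largest difference of the 8 genes tested. Its levels were 720.0, 619, 629, 553 and 630.4 CPM in wild-type replicates 1 to 5, and 74.3, 50.4, 25.9, 33.2 and 400.4 CPM in Ndrg3 LKO replicates 1 to 5. All 5 Ndrg3 LKO livers were below the lowest wild-type liver, but replicates 1 to 4 held at most 74.3 CPM while replicate 5 lay between them and the wild-type livers. The log2 fold change was -2.43 (SE 0.670, edgeR adjusted p = 0.0106) over all 10 livers and -3.79 (adjusted p = 1.44e-06) without Ndrg3 LKO replicate 5. The 2-sided exact permutation test of the mean log2(CPM + 1) gave p = 0.00794, the smallest value that 5 against 5 livers allow.

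*Slc25a15* (chr8:23486026-23509093, minus strand, 7 exonic blocks), the carrier that brings ornithine to OTC and takes citrulline out, moved the other way. It was counted at 424, 579, 732, 483 and 597 CPM in wild-type livers and at 1121, 1237, 1524, 779 and 1318 CPM in Ndrg3 LKO livers. Every Ndrg3 LKO liver was above every wild-type liver, replicate 5 among them, and the log2 fold change was 1.09 (SE 0.211, edgeR adjusted p = 0.00153; 1.04 without replicate 5). The exact permutation p was 0.00794 here too. Within a liver, wild-type samples held 0.589 to 1.16 *Slc25a15* reads per *Otc* read. The Ndrg3 LKO livers held 15.1, 24.5, 58.8, 23.5 and 3.29, so the ratio was above every wild-type value in all 5, replicate 5 included. That follows from the levels of both genes given above and is not a separate result.

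In the cytosol the steps after citrulline differed among themselves. *Asl* (chr5:130487128-130501002, minus strand, 18 exonic blocks) was counted at 2125, 1673, 2051, 1479.9 and 1711 CPM in wild-type and at 425, 317, 494, 382 and 2115 CPM in Ndrg3 LKO livers. Replicates 1 to 4 lay far below the lowest wild-type liver, and replicate 5 lay within the wild-type range. The log2 fold change was -1.28 (SE 0.481, edgeR adjusted p = 0.0442) with all livers and -2.17 (adjusted p = 2.40e-06) without replicate 5. Leaving out any one of the other 9 livers while replicate 5 stayed in gave adjusted p from 0.0522 to 0.0994, above the threshold, so with replicate 5 the call depended on every liver. The exact permutation p for *Asl* was 0.0397 over all livers.

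*Arg1* (chr10:24635014-24647276, minus strand, 8 exonic blocks), the last enzyme of the cycle, did not follow *Asl*. It stood at 2811, 1559.6, 1830.4, 1810.3 and 1774 CPM in wild-type livers and 1737, 1710.0, 2057, 1529 and 2692 CPM in Ndrg3 LKO livers. The highest values, wild-type replicate 1 and Ndrg3 LKO replicate 5, were one in each group, and the means were 1957 ± 489.5 and 1945 ± 459 CPM (SD, n = 5 each), with a log2 fold change of -0.0090 (SE 0.215, edgeR adjusted p = 0.977). Per *Asl* read, wild-type livers held 0.893 to 1.32 *Arg1* reads. Ndrg3 LKO replicates 1 to 4 held 4.09, 5.40, 4.16 and 4.0 and replicate 5 held 1.27, inside the wild-type range.

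*Ass1* (chr2:31325727-31376192, plus strand, 16 exonic blocks), the enzyme between OTC and ASL, is one of the abundant transcripts of liver, but was barely counted in these tables. The 5 wild-type libraries held 4, 5, 13, 3 and 3 reads of it and the 5 Ndrg3 LKO libraries 26, 9, 12, 13 and 37, far fewer than of any other of the 9 genes. It did not pass the filter on low values, so no test was made. The *Ass1* transcript has an intronless copy in the NCBIM37 genome, at chr10:61533764-61535357, which covered 94.1% of the transcript at 99.2% identity and is annotated as *Gm5424*. *Gm5424* was listed with 0 counts in every liver. None of the other 8 genes had a copy of at least 95% identity over at least 50% of the transcript; the most similar was a stretch on chromosome 7 that covered 35.1% of the *Glud1* transcript at 97.2% identity. Whether reads shared with that copy account for the counts of *Ass1* was not tested, and these values are not read as its expression.

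The carriers and enzymes that feed nitrogen into the cycle differed in both directions. *Slc25a13* (chr6:5991219-6167173, minus strand, 19 exonic blocks), which supplies the aspartate used by argininosuccinate synthetase, was counted at 245, 280.1, 331, 249.8 and 279 CPM in wild-type and 149, 129.7, 124, 132 and 207 CPM in Ndrg3 LKO livers. All 5 Ndrg3 LKO livers were below all wild-type livers, replicate 5 being the highest of them, and the log2 fold change was -0.90 (SE 0.167, edgeR adjusted p = 0.00119; -1.06 without replicate 5; exact permutation p = 0.00794). *Glud1* (chr14:35123913-35158330, plus strand, 15 exonic blocks), which frees ammonia from glutamate inside mitochondria, was counted at 1134, 1098, 1285, 1021 and 997 CPM in wild-type and 1802, 2221, 1857, 1584 and 1113 CPM in Ndrg3 LKO livers. Replicates 1 to 4 were above every wild-type liver and replicate 5 was within the wild-type range. The log2 fold change of *Glud1* was 0.63 (SE 0.192, edgeR adjusted p = 0.0172; 0.74 without replicate 5; exact permutation p = 0.0238).

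**Figure D2:**
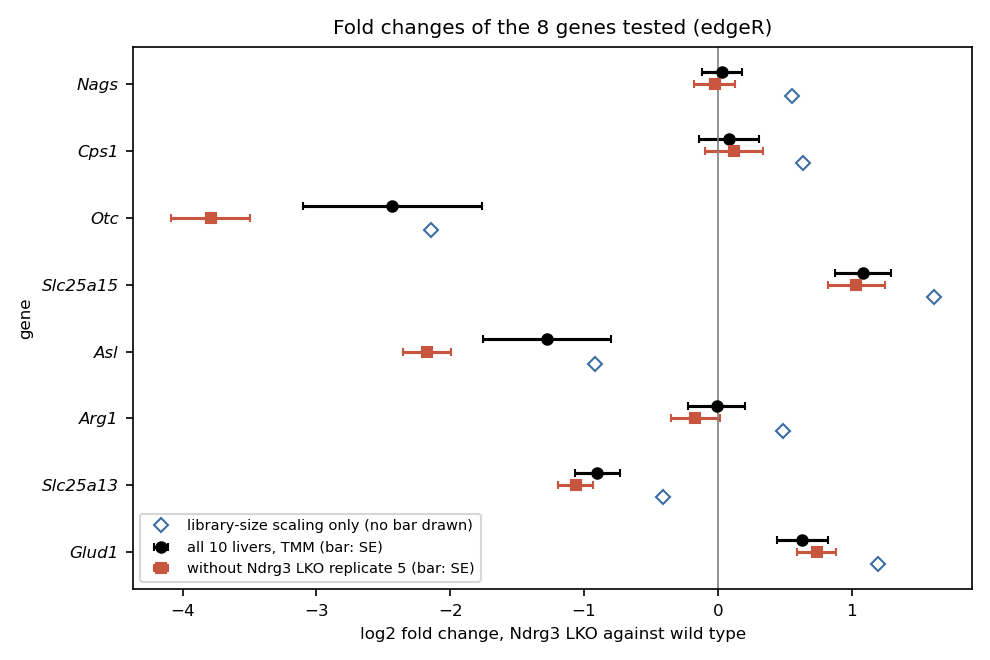
Log2 fold change of Ndrg3 LKO against wild-type livers (x axis) for the 8 genes tested, with all 10 livers (black, bar SE), without Ndrg3 LKO replicate 5 (red, bar SE) and scaled by library size alone (open, no bar drawn). *Otc* moves from -2.43 to -3.79 and *Asl* from -1.28 to -2.17 when replicate 5 is left out, and library-size scaling places every gene to the right of its TMM value.

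Ndrg3 LKO replicate 5 thus differed from the other 4 in some of these genes and not in others. For *Otc*, *Asl* and *Glud1* it lay nearer to the wild-type mean than to the mean of replicates 1 to 4, with 400.4, 2115 and 1113 CPM against wild-type means of 630.2, 1808 and 1107. For *Slc25a13* it had 207 CPM, between the wild-type mean of 277 and the mean of 134 in replicates 1 to 4. For *Slc25a15* it had 1318 CPM, within the 779 to 1524 CPM of the other Ndrg3 LKO livers. The same split appeared outside the cycle: *Alb* and *Cyp2f2* in replicate 5 had 108019.7 and 809 CPM, against 20962 to 26379 and 11.2 to 70.0 CPM in replicates 1 to 4, while *Glul* had 102 CPM against 111 to 151.

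The calls of *Cps1*, *Arg1* and *Nags*, and the sign of *Arg1*, depended on the scaling between libraries. Scaled by library size alone, all genes tested had a median log2 fold change of 0.56 in place of 0.031, and 61.0% of genes passed the threshold, 52.1% higher and 8.97% lower. *Cps1* (0.64), *Arg1* (0.49) and *Nags* (0.56) then passed as higher, and all 8 genes tested passed. Relative to the median of all genes under each scaling, *Cps1* differed by 0.055 with TMM and 0.080 with library-size scaling, *Arg1* by -0.040 and -0.069, and *Nags* by 0.0032 and -0.0054. With quantile normalization and limma, *Cps1* (0.98, adjusted p = 0.0275) and *Arg1* (0.78, adjusted p = 0.00449) also passed as higher and *Nags* (0.16, adjusted p = 0.409) did not. All genes tested had a median of 0.038 in that fit, so *Cps1* and *Arg1* stood well above the median there. *Otc*, *Asl* and *Slc25a13* were lower and *Slc25a15* and *Glud1* higher, past the threshold, under TMM, library-size scaling and quantile normalization alike.

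A ratio of 2 genes within a liver does not depend on that scaling, so each gene was also set against *Cps1*. Wild-type livers held 10.9 to 15.6 *Otc* reads per 100 *Cps1* reads, Ndrg3 LKO replicates 1 to 4 held 0.415 to 1.91, and replicate 5 held 9.04. The log2 ratio fell by 3.31 (2-sided exact permutation p = 0.00794, 7 genes compared in this way, unadjusted). *Slc25a15* rose against *Cps1*, from 6.49 to 17.4 reads per 100 in wild-type to 18 to 28.7 in replicates 1 to 4 and 29.7 in replicate 5, a difference of 1.0 in log2 ratio with no overlap between groups (exact permutation p = 0.00794). *Asl* (-1.76, exact p = 0.0397) and *Slc25a13* (-0.99, exact p = 0.0238) were lower against *Cps1*, with overlap between groups in both. For *Slc25a13* the overlap remained without replicate 5. Wild-type livers held 3.74 to 7.89 *Slc25a13* reads per 100 *Cps1* reads, replicates 1 to 4 held 1.89 to 3.82, and replicate 5 held 4.68. The call of *Asl* was lost (exact p from 0.0635 to 0.0794) when any liver but Ndrg3 LKO replicate 5 was left out. *Glud1* was higher (0.53, exact p = 0.0476), a call lost when any 1 of 7 livers was left out (wild-type replicates 1, 2, 4 and 5 and Ndrg3 LKO replicates 1, 2 and 4). *Arg1* (-0.080, exact p = 0.738) and *Nags* (-0.063, exact p = 0.833) did not pass. Without replicate 5 the differences were -4.01 for *Otc*, -2.28 for *Asl*, -1.16 for *Slc25a13*, 0.63 for *Glud1* and 0.92 for *Slc25a15*, and all 5 kept an exact permutation p under 0.05 (0.0159 or 0.0317). Wild-type livers held 35.6 to 44.0 *Arg1* reads per 100 *Cps1* reads and Ndrg3 LKO replicates 1 to 4 held 24.9 to 44.5.

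**Figure D3:**
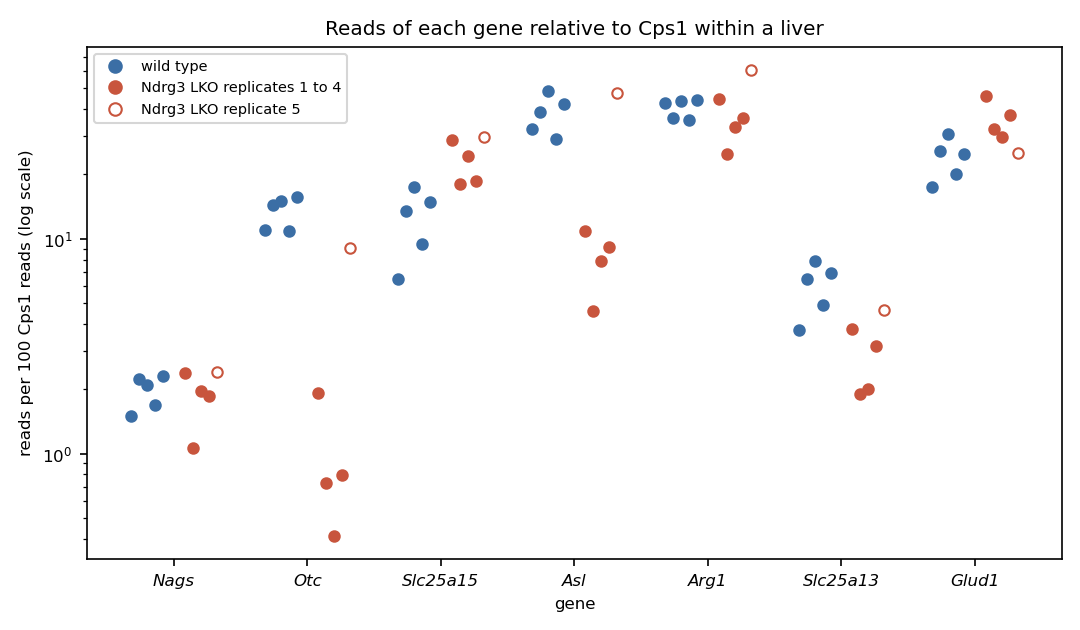
Reads of each gene per 100 *Cps1* reads of the same liver (y axis, log scale) in wild-type livers (blue), Ndrg3 LKO replicates 1 to 4 (red) and replicate 5 (open). *Otc* lies at 10.9 to 15.6 in wild-type livers and 0.415 to 1.91 in replicates 1 to 4, *Slc25a15* lies higher in all Ndrg3 LKO livers, and *Arg1* and *Nags* overlap between groups.

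Levels of different genes were compared per kilobase of exon, as TMM-normalized CPM divided by the joined length of all annotated exons. That length can exceed the length of a single transcript, by amounts that differ between genes. For *Glud1* it was 4089 bases, against 3269 in the longest coding transcript. The order of the genes therefore holds for this length only. In wild-type livers *Arg1* (1326 CPM per kilobase, range 1057 to 1905) and *Cps1* (869.7, 726 to 1177) were highest, and their ranges overlapped. *Asl* (396, 324 to 466) and *Glud1* (271, 244 to 314) followed, then *Slc25a15* (163, 123 to 212) and *Otc* (149, 130.3 to 169.8), which overlapped, then *Slc25a13* (88.3) and *Nags* (32.4). In Ndrg3 LKO replicates 1 to 4 the order changed below the first pair. *Arg1* (1191) and *Cps1* (955) again overlapped at the top, followed by *Glud1* (456), *Slc25a15* (338), *Asl* (88.6), *Slc25a13* (42.7), *Nags* (32.1) and *Otc* (10.8), where *Glud1* overlapped with *Slc25a15* and *Slc25a13* with *Nags*. By this measure *Otc*, above *Nags* in every wild-type liver, was the lowest in these 4 livers. It stood at 6.11 to 17.5 CPM per kilobase against 25.6 to 43.2 for *Nags*, while in replicate 5 it stood at 94.4 against 37.5.

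Genes around the cycle were taken from 4 lists, of glutamine and ammonia exchange, of nitrogen donors and partners of the cycle, of arginine and ornithine use, and of transcription factors and receptors known to act on urea cycle genes. Of 43 genes tested in them, 25 passed the threshold, 13 higher and 12 lower in Ndrg3 LKO livers, beside the 48.6% of all genes. In glutamine and ammonia exchange 2 of 11 genes were higher and 4 lower, beside 25.6% and 23.0% of all genes. The median log2 fold change was -0.30, beside 0.031 for all genes. *Glul*, glutamine synthetase, stood at 1331 to 1636 CPM in wild-type and 151, 113, 142, 111 and 102 CPM in Ndrg3 LKO livers. It was low in all 5, replicate 5 included (log2 fold change -3.60, edgeR adjusted p = 5.41e-07). The glutamate transporter *Slc1a2* (-1.78), the neutral solute channel *Aqp9* (-0.84) and the amino acid transporter *Slc38a4* (-0.52, but -0.0085 with library-size scaling) were lower. The neutral amino acid transporter *Slc1a4* (1.10) was higher at levels under 8 CPM, with overlap between groups. *Gls2*, the liver glutaminase that releases ammonia from glutamine, stood at 302 to 433 CPM in wild-type livers and 365, 376, 464, 308 and 872 CPM in Ndrg3 LKO livers and did not pass (0.39, adjusted p = 0.240). Per *Glul* read, wild-type livers held 0.191 to 0.318 *Gls2* reads and Ndrg3 LKO livers 2.42 to 8.57, with the highest value in replicate 5.

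Among nitrogen donors and partners of the cycle 3 of 12 genes were higher and 2 lower (median 0.26), beside 25.6% and 23.0% of all genes (median 0.031). *Mdh2*, mitochondrial malate dehydrogenase, stood at 333 to 414 CPM in wild-type and 1605, 1611, 1795, 1147 and 752 CPM in Ndrg3 LKO livers (log2 fold change 1.83, edgeR adjusted p = 9.78e-05). The mitochondrial glutamate carrier *Slc25a22* (0.88) and alanine aminotransferase *Gpt* (0.43) were higher, and the mitochondrial deacetylase *Sirt3* (-0.80) and the mitochondrial alanine aminotransferase *Gpt2* (-0.47, but 0.047 with library-size scaling) were lower. *Slc25a12*, the other aspartate and glutamate carrier, stood at 11.6 to 16.5 CPM in wild-type and 13.1 to 19.9 CPM in Ndrg3 LKO livers and did not pass (0.27, adjusted p = 0.178).

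Of the arginine and ornithine users 8 of 10 were tested. Of these 5 were higher and 2 lower (median 0.76), beside 25.6% and 23.0% of all genes (median 0.031). Ornithine decarboxylase *Odc1*, which starts polyamine synthesis, stood at 93.3 to 154 CPM in wild-type and 271, 344, 273, 362 and 166 CPM in Ndrg3 LKO livers (1.11, edgeR adjusted p = 0.00164). The proline-degrading enzymes *Prodh* (-1.78) and *Aldh4a1* (-0.86) were lower. *Gatm* (1.08) and *Nos3* (1.05) were higher at levels under 6 CPM, and *Agmat* (0.46) was higher. Ornithine aminotransferase *Oat*, the main other consumer of ornithine, did not pass (0.078, adjusted p = 0.746). Arginase 2, *Arg2*, had at most 0.335 CPM in any liver and was not tested.

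Of the 12 transcription factors and receptors 3 were higher and 4 lower (median -0.092), beside 25.6% and 23.0% of all genes (median 0.031). *Hnf4a*, a nuclear receptor of hepatocytes, stood at 590.3 to 794 CPM in wild-type livers and 181, 227, 194, 187 and 362 CPM in Ndrg3 LKO livers (-1.58, edgeR adjusted p = 0.000134). *Cebpa* stood at 298 to 394 and 101, 67.7, 65.9, 83.3 and 196 CPM (-1.76, adjusted p = 0.000475), and the glucagon receptor *Gcgr* at 227 to 280.2 and 56.9 to 185 CPM (-1.26, adjusted p = 0.00206). In all 3 genes every Ndrg3 LKO liver was below every wild-type liver, as in 15.9% of all genes tested. Replicate 5 was the highest of the Ndrg3 LKO livers in each of them. *Cebpb* (-0.89) was also lower, while the coactivator *Ppargc1a* (2.76), *Foxa2* (0.79) and *Creb1* (0.57) were higher. For *Ppargc1a* and *Creb1* every Ndrg3 LKO liver was above every wild-type liver, as in 15.6% of all genes tested. The glucocorticoid receptor *Nr3c1* did not pass (-0.14, adjusted p = 0.426). With library-size scaling 22 of the 43 genes of these lists were higher, beside 52.1% of all genes, and 6 lower, beside 8.97%, namely *Glul*, *Slc1a2*, *Prodh*, *Hnf4a*, *Cebpa* and *Gcgr*. Without Ndrg3 LKO replicate 5, 28 of 44 genes passed, 14 in each direction, beside 55.6% of all genes.

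**Figure D4:**
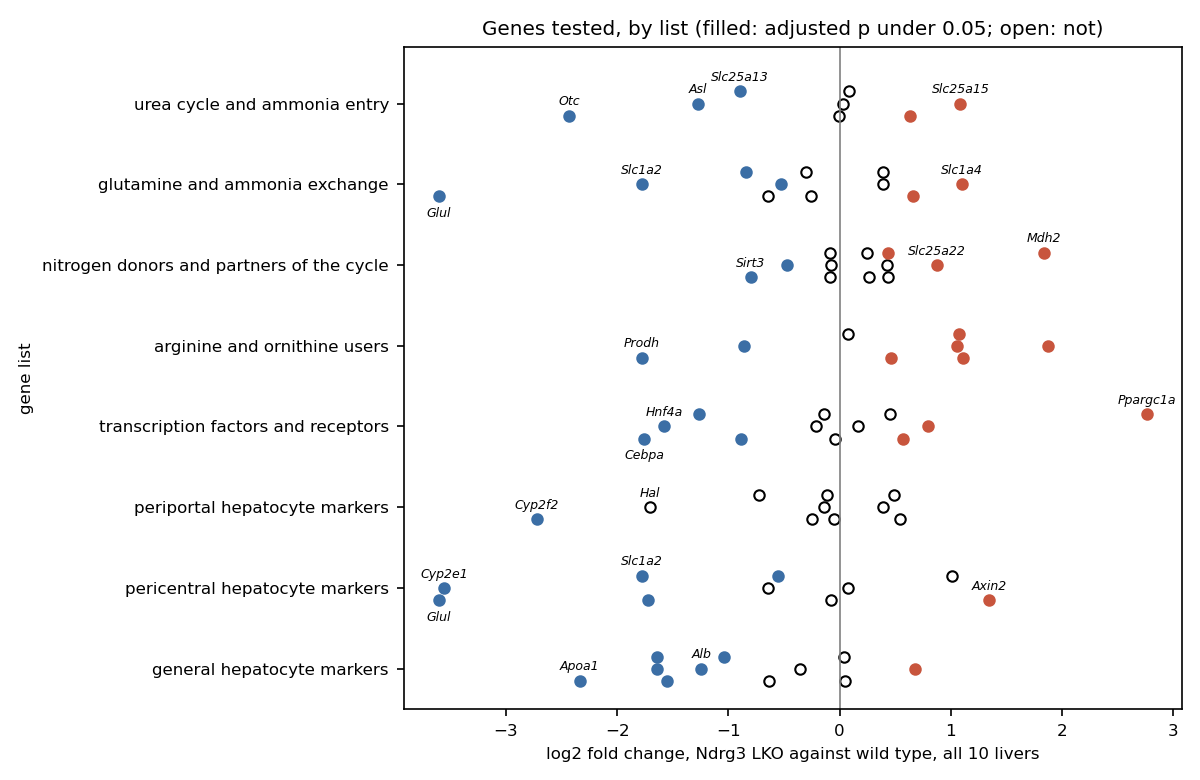
Log2 fold change of Ndrg3 LKO against wild-type livers (x axis, all 10 livers, TMM) for each gene tested, by list (rows). Filled points passed an adjusted p of 0.05 (red higher, blue lower) and open points did not. The urea cycle genes run from -2.43 to 1.09, and *Glul* lies at -3.60. Of 11 general hepatocyte markers 6 are lower and 1 is higher, beside 23.0% and 25.6% of all genes tested.

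Markers of zones and cell types were read beside these results, with summed levels in TMM-normalized CPM, against 25.6% of all genes higher and 23.0% lower with all livers and 28.4% and 27.2% without Ndrg3 LKO replicate 5. The tissue held hepatocyte markers at high levels in every liver (*Alb* at 20962 to 115946 CPM). Of general hepatocyte markers 6 of 11 were lower and 1 higher (8 and 0 without replicate 5), with summed levels of 155166 to 197146 in wild-type, 48454 to 62629.7 in Ndrg3 LKO replicates 1 to 4 and 183777 in replicate 5. Of periportal markers 1 of 10 was lower with all livers and 5 without replicate 5, with summed levels of 7404 to 10859, 4267 to 6578 and 12594. *Hal*, histidine ammonia-lyase, was high in replicate 5 as *Otc* and *Asl* were, at 202 to 326 CPM in wild-type, 16.9, 11.6, 21.7 and 15.6 in replicates 1 to 4 and 322 in replicate 5. Of pericentral markers 5 of 10 were lower and 1 higher (5 and 2 without replicate 5), with sums of 17147 to 19529, 3343 to 4178 and 3537. Macrophage markers were higher in 10 of 10 (sums 104 to 242, 230.0 to 681 and 300.5), stellate and fibroblast markers in 5 of 8 (sums 112 to 178, 241 to 313 and 246) and endothelial markers in 7 of 8 (sums 69.0 to 93.4, 154 to 194 and 142). Biliary markers were higher in 1 and lower in 1 of 6 (2 and 1 without replicate 5; sums 49.8 to 80.6, 58.8 to 229 and 57.1), the 1 lymphocyte marker tested, *Ptprc*, was higher (sums of 8 markers 3.64 to 5.24, 4.78 to 14.1 and 13.1), and cycling cell markers were higher in 5 of 5 (sums of 6 markers 4.55 to 7.70, 10.6 to 68.3 and 93.3). Without replicate 5 the counts of macrophage, stellate, endothelial, lymphocyte and cycling cell markers were the same. No marker of any list was at 0 in every liver. The part of these shifts in the differences of the urea cycle genes was not tested.

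The genes whose pattern over the 10 livers was most like that of *Cps1* were looked for among 2622 genes with a mean of at least 50 CPM, by the root mean square difference of the log2 ratios to the wild-type mean. They were *Qk* (0.146), *Ctnnd1* (0.155), *Ogdh* (0.157), *Sptan1* (0.157) and *Tpp1* (0.171). Among the genes of the cycle *Arg1* was nearest to *Cps1* (0.325) and *Otc* was farthest (2.57). The genes named first were picked as the nearest of 2622 candidates, and the cycle holds only a few genes. No conclusion is therefore drawn from their smaller distances.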

How the data were processed

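Total liver mRNA of 5 wild-type and 5 Ndrg3 LKO mice was sequenced by the authors from stranded libraries (paired reads of 100 bases), mapped to mm9 with STAR and counted per gene. The submitters' processing notes name Trim Galore 0.6.4, STAR 2.7.3a and Cufflinks 2.2.1. The methods of the study differ from these notes: they give another version of STAR and name STAR itself for the counting. The deposited values are whole-number counts per gene symbol and were used as raw counts. The annotation and strand setting of the counting are not given in the sources used here. The 9 genes and all lists were chosen with earlier results of these data known.

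Counts were analysed in R 4.3.3 with edgeR 4.0.16 (TMM, quasi-likelihood test, Benjamini-Hochberg over all genes that reached 1 CPM in 5 or more livers, threshold 0.05). limma 3.58.1 and DESeq2 1.42.0 served as alternatives. Exact permutation tests used log2(CPM + 1), and ratios to *Cps1* used counts + 0.5. Positions are from GENCODE for NCBIM37, copies were sought with minimap2 2.31-r1302, and promoter sequences are from RefSeq. The labels do not say that livers of one number share a litter or day. The p-values weigh the difference between genotypes against the spread between livers. All 9 genes, *Ndrg3*, at least the 2 highest and 2 lowest genes of each pathway list, and the 5 genes most like *Cps1* were to be named, and some of the list genes are not reported here. Counting floors cover counting error only.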

Additional observations from a re-analysis of the deposited data

Results flagged for a closer look

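In each genotype the highest and lowest liver of each of the 9 genes and of *Ndrg3*, 20 groups in all, were compared with the others by Dixon's ratio, the gap to the nearest other liver divided by the range of the group. Chance alone exceeds the critical value in about 1 of 20 groups. In Ndrg3 LKO livers replicate 5 was the highest for *Otc* (ratio 0.871, 400.4 CPM against 25.9 to 74.3 in the other 4) and for *Asl* (0.901, 2115 CPM against 317 to 494). In wild-type livers replicate 1 was the highest for *Arg1* (0.784, 2811 CPM against 1559.6 to 1830.4), and replicate 3 for *Ass1* (0.818), where it held 13 counts against 3 to 5 in the others, which lay close to the floor of 3 counts.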

How the results depend on the processing

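*Otc*, *Slc25a13*, *Slc25a15* and *Glud1* kept direction and threshold under all 18 alternatives tried for each (other scalings, DESeq2, limma, other filters, a replicate block and each liver left out). *Asl* kept direction and passed in 8 of them. It had adjusted p = 0.0542 with a filter on mean CPM of at least 5 (-1.22). With each liver left out its log2 fold change ran from -2.17 to -1.08. The number of the 8 genes that differed was 8 with library-size scaling, where *Cps1* (0.64), *Arg1* (0.49) and *Nags* passed as higher, and 4 to 5 with each liver left out. *Arg1* turned to 0.78 with quantile normalization and 0.045 with the filter on mean CPM, and *Nags* to -0.0056 with no filter. With each liver left out, fold changes ran from -0.043 to 0.20 for *Cps1*, from -0.17 to 0.14 for *Arg1* and from -0.078 to 0.11 for *Nags*. Differences of mean log2(CPM + 1), whose alternatives were chosen after seeing the data, ran from -0.042 to 0.19 (*Cps1*), -2.16 to -1.48 (*Asl*), -0.13 to 0.13 (*Arg1*) and -0.091 to 0.095 (*Nags*), and with library-size scaling were 0.51 for *Arg1* and 0.52 for *Nags*. Log2 ratios to *Cps1* ran from -2.28 to -1.44 (*Asl*), -0.25 to 0.074 (*Arg1*), -0.16 to 0.14 (*Nags*) and 0.41 to 0.63 (*Glud1*). The cause was not tested. Livers share only a replicate number: same-numbered livers had correlations of their deviations from -0.357 to 0.036 and none of 10 correlated best with its own number. A replicate block gave 4412 changed genes in place of 5443, and the same 5 urea cycle genes passed (*Asl* -1.74, *Otc* -3.34). *Ass1*, with 3 to 37 counts per liver, was too low to test.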
